A study of Mus musculus with 18 samples.

Results

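The genes described are 9 of the 55335 in the deposited feature lists: the neurexin genes Nrxn2 and Nrxn3, the neuroligin genes Nlgn1, Nlgn2 and Nlgn3, and the leucine-rich repeat transmembrane genes Lrrtm1, Lrrtm2, Lrrtm3 and Lrrtm4. They were found by their symbols, each of which names 1 row. Neurexins are adhesion proteins of the presynaptic membrane, and neuroligins and Lrrtm proteins are postsynaptic proteins that bind them across the synaptic cleft. Nlgn1 is known from glutamatergic synapses, Nlgn2 from GABAergic synapses and Nlgn3 from both, and Lrrtm proteins are known from glutamatergic synapses. The forebrain of the embryo holds few synapses, so RNA of these genes is read here in neurons that are still being born, migrating and extending axons.

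Forebrain nuclei were taken at embryonic day 14 (E14) from mouse embryos of the MYT1L S710fsX line, a frameshift in the gene of a zinc finger transcription factor of neurons, on a C57BL/6 background. WT embryos carry 2 intact alleles, Het embryos 1 and KO embryos none, in every cell of the animal, and all came from matings of Het parents, in 3 litters. Each genotype has 3 animals, and each animal was measured in 2 runs of single-nucleus RNA sequencing with combinatorial barcoding, 18 libraries in all. The animal is the replicate, its runs were summed, and genotypes follow the sample titles, because the genotype tag of run 1 reads WT in all its libraries. The frameshift leaves a transcript that is still counted: in excitatory neurons the WT animals held 1952, 2237 and 2136 CPM of Myt1l, the Het animals 2250, 2506 and 2434 CPM and the KO animals 2565, 2874 and 2634 CPM (log2 fold change of KO against WT 0.37, edgeR adjusted p = 0.0433). That call was lost in 5 of the 9 fits that left out 1 animal (adjusted p of 0.0618 to 0.192), in run 1 alone, in the animals numbered 2 and 3 alone, with only WT and KO fitted and without doublet removal, and it held with animals paired by number (2.76e-05). Myt1l RNA therefore does not check the labels.

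Of 261143 barcodes, 194168 nuclei were kept, with medians of 2523 estimated UMIs and 1538 genes. Clusters were named from marker genes, so every name below means nuclei that carry those markers: 54905 excitatory neurons (4658 to 7550 per animal), 50722 inhibitory neurons, 2414 Cajal-Retzius neurons (177 to 386 per animal), 30195 radial glia, 9911 excitatory intermediate progenitors, 5859 inhibitory progenitors and 1456 diencephalic neurons. The members themselves were not among the genes used for clustering. The Cajal-Retzius cluster held all 6 of its markers, and the 7 inhibitory markers summed there to 61.1 CPM, 1.66% of their sum in inhibitory neurons. Barcodes were shared too: 149 between libraries of 1 animal and 1704 between animals. Of the diencephalic neurons 999 came from Het 1 and 5 from KO 2, so this class is given levels only. Levels of Xist and of 4 genes of the Y chromosome mark WT 3 as the only female animal.

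Levels are given as CPM, the share of a gene in all counts of that group of nuclei and animal, scaled to a fixed total as is usual for this unit. The members span a wide range of sizes on mm10. Nrxn3 (chromosome 12, 88722876 to 90334935, plus strand) covers 1612 kb, Nlgn1 (chromosome 3, 25426215 to 26332460, minus strand) 906.2 kb and Lrrtm4 (chromosome 6, 80018877 to 80810143, plus strand) 791.3 kb. Lrrtm3 (chromosome 10, 63928472 to 64090277, minus strand) covers 161.8 kb, Nrxn2 (chromosome 19, 6418731 to 6544169, plus strand) 125.4 kb and Nlgn3 (chromosome X, 101299168 to 101325963, plus strand) 26.8 kb. Lrrtm1 (chromosome 6, 77242689 to 77257791, plus strand), Nlgn2 (chromosome 11, 69823122 to 69837784, minus strand) and Lrrtm2 (chromosome 18, minus strand) are short, at 15.1, 14.7 and 6.02 kb. Nuclear RNA holds introns, so long genes give more counts than short ones, and levels are compared between genes only per length.

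Some of these counts cannot be assigned to 1 gene with certainty, since the sources used here do not say whether counting used strand. Lrrtm1 lies within Ctnna2, Lrrtm2 within Ctnna1 and Lrrtm3 within Ctnna3, in each case on the other strand of an alpha-catenin gene. Exons overlap on the other strand for Lrrtm2 with Ctnna1, for Nrxn2 with Slc22a12 and Gm14964, for Nlgn1 with A830092H15Rik, for Lrrtm4 with Gm4409 and for Nrxn3 with Gm37980, and on the same strand for Nlgn3 with Gm21986.

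Per kb of exons, Nlgn1 was the highest member in excitatory neurons at 246 CPM per kb, followed by Lrrtm4 at 202 and Lrrtm3 at 54.6 CPM per kb, and Lrrtm2 was the lowest at 2.31 CPM per kb. In inhibitory neurons Nrxn3 led at 1879 CPM per kb of exons, followed by Lrrtm4 at 122 and Nlgn1 at 110 CPM per kb. The choice of length matters for this order. Per kb of the whole gene, Nlgn2 led in excitatory neurons at 6.73 CPM per kb, with Nlgn1 next at 3.65, and Nrxn3 still led in inhibitory neurons at 14.7 CPM per kb, with Nlgn2 next at 7.59. Nrxn3 was thus first in inhibitory neurons by either length.

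The promoter windows of Lrrtm4 and of Nrxn3 are shown because these 2 members were called in KO by the main edgeR test described below. Windows of Nrxn2 and Nlgn3 are not shown. MYT1 family zinc fingers are known to bind DNA with the core AAGTT. Each window, from RefSeq on GRCm38.p6, runs from 250 bases before to 50 bases after a transcript start, 5′ to 3′ on the gene's strand, with AAGTT on either strand (read as AAGTT or AACTT) in capitals.
Lrrtm4, chr6:80018627-80018926, plus strand: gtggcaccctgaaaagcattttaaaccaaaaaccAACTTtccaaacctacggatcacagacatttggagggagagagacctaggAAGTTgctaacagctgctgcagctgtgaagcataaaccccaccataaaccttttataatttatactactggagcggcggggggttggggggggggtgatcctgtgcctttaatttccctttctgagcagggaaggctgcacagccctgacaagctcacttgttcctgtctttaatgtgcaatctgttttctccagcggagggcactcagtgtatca
Lrrtm4, chr6:80019393-80019692, plus strand: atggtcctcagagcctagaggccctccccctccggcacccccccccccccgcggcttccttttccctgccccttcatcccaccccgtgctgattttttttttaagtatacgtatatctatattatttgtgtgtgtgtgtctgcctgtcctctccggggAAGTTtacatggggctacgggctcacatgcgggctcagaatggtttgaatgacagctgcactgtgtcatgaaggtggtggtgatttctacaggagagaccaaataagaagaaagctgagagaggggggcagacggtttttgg
Nrxn3, chr12:88794254-88794553, plus strand: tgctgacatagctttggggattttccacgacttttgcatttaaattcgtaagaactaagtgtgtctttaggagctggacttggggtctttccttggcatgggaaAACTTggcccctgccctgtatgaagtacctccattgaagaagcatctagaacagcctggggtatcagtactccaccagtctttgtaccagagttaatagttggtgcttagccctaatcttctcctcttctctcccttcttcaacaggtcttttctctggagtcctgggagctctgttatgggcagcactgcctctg
The first Lrrtm4 window holds 2 matches, the second 1 and this Nrxn3 window 1, whereas the windows at the other Nrxn3 starts, at 88953140 to 88953439 and 89812233 to 89812532, hold 0. These 5 letters are common: 39.3% of 32851 promoter windows of 300 bases hold at least 1 match and 11.4% hold 2 or more, so a match describes the window and is not a bound site.

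Nrxn3 was the member that separated neuron types most. It averaged 23687 CPM in inhibitory neurons and 258 CPM in excitatory neurons (means of 9 animals), a ratio of 91.8 and higher in inhibitory neurons in all 9 animals. Among inhibitory groups it was highest in inhibitory neuron cluster 1, led by Lhx6 and Sfta3-ps, at 37144 ± 1843 CPM (SD, n = 9), followed by caudal ganglionic eminence interneurons at 34694 ± 2170 and medial ganglionic eminence interneurons at 30760 ± 1670 CPM. Olfactory bulb neurons stood at 27087 CPM, septal neurons at 24301, indirect-pathway striatal neurons at 21587, pallidal and cholinergic neurons at 16744 and direct-pathway striatal neurons at 11456 CPM. From the top of this order down to indirect-pathway neurons, each group was above the next in 9 of 9 animals. The level was already 27855 CPM in inhibitory progenitors, within the range of the neuron groups.

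In excitatory nuclei Nrxn3 is given as a share of its inhibitory level, beside genes that mark inhibitory neurons. It stood at 1.09%, and the GABA synthesis genes Gad1 and Gad2 stood at 1.12% and 1.45% of theirs. The 7 inhibitory markers ranged from 1.12% to 4.31%, the highest being Dlx5. In CPM, which takes no account of gene length, Nrxn3 stood at 258, Gad1 at 5.37 and Gad2 at 18.3. The order was the same in inhibitory neurons, at 23687, 479 and 1259 CPM, so it does not set excitatory nuclei apart. The share of Nrxn3 was above that of Gad1 in excitatory neuron cluster 13 (0.821 against 0.678%) and in lateral pallium and amygdala neurons (1.73 against 1.36%). In excitatory neuron cluster 15, deep-layer and migrating neurons it was below that of Gad1. Nrxn3 in the 5 excitatory groups ranged from 195 to 411 CPM. Animals numbered 1 had the most: Nrxn3 in excitatory neurons was 1.52, 1.64 and 1.67% of the inhibitory level in WT 1, Het 1 and KO 1 and 0.661 to 1.09% in the other 6 animals, and Gad1 followed with 1.32 to 1.65% against 0.674 to 1.18%. Whether counts of Nrxn3 in excitatory nuclei came from other nuclei was not tested, so no expression is read from them, and if any did, the ratio of 91.8 between the classes is a lower bound. Cajal-Retzius neurons held 979 ± 297 CPM of Nrxn3, or 4.13% of the inhibitory level, beside 1.21% for Gad1 and 1.27% for Gad2. The shares of the inhibitory markers spread widely there, and not every one lay below that of Nrxn3.

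Nlgn1 was the neuroligin with the strongest pattern across subtypes. It averaged 3306 CPM in excitatory and 1474 CPM in inhibitory neurons, 2.24-fold higher in excitatory neurons and higher there in 9 of 9 animals. Deep-layer neurons, with Hs3st4 and Nfe2l3 among their leading genes, held 7322 ± 329 CPM and were above every other group. The next were caudal ganglionic eminence interneurons at 3469 ± 162 and excitatory neuron cluster 13, led by Slit3 and Gm32647, at 3068 ± 224 CPM. Medial ganglionic eminence interneurons, with 652 ± 50.7 CPM, and Cajal-Retzius neurons, with 479 ± 94.2 CPM, were the lowest, each below the group above it in 9 of 9 animals. The pair of interneuron types thus stood at opposite ends of the inhibitory range.

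Nlgn2 and Nlgn3 varied little. Nlgn2 ranged from 92.8 CPM in deep-layer to 136.4 ± 14.2 CPM in septal neurons, a 1.47-fold range over 15 groups of neurons, and was 98.7 CPM in excitatory and 111 CPM in inhibitory neurons. Septal neurons were above the next group, olfactory bulb neurons, in 8 of 9 animals, and most other neighbours in the order changed places between animals. Nlgn3 ranged from 28.6 CPM in migrating to 57 CPM in septal neurons, with 37.7 CPM in excitatory and 43.7 CPM in inhibitory neurons. Both genes are short and gave few counts, and neighbours in the order of Nlgn3 kept their order in at most 7 of 9 animals, so the order within it is not resolved.

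Among the Lrrtm genes, Lrrtm3 and Lrrtm4 had wide ranges between neuron groups. Lrrtm3 reached 629.9 ± 71.6 CPM in deep-layer neurons, above the next group, direct-pathway striatal neurons at 203 ± 19.5 CPM, in 9 of 9 animals. It was only 12.2 ± 3.04 CPM in inhibitory neuron cluster 1 and 5.27 ± 1.67 CPM in medial ganglionic eminence interneurons, a range of 119.5-fold. The low end of this range lay below the 13 CPM of radial glia. Whether counts at such levels came from other nuclei was not tested. Lrrtm4 was highest in pallidal and cholinergic neurons at 2280 ± 166 CPM and in deep-layer neurons at 2034 ± 188 CPM, and these changed places in 2 of 9 animals. Cajal-Retzius neurons had the least Lrrtm4, 103 ± 24.5 CPM. Deep-layer neurons were thus rich in both genes, whereas medial ganglionic eminence interneurons, lowest for Lrrtm3, held 868 ± 98.5 CPM of Lrrtm4.

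Lrrtm1 was higher in excitatory neurons, with 22.9 CPM in excitatory and 12 CPM in inhibitory neurons, in this order in 9 of 9 animals. Its top groups were excitatory neuron cluster 13 at 29.7 ± 5.67 and deep-layer neurons at 28 ± 2.77 CPM, which did not differ beyond their spread. Lrrtm2 stood at 13.9 and 13.3 CPM in the classes but reached 27.8 ± 7.13 CPM in deep-layer neurons, above the next group in 9 of 9 animals. All 4 Lrrtm genes and Nlgn1 were therefore first or second in deep-layer neurons.

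Nrxn2 varied far less between neuron groups than Nrxn3, over a 3.16-fold range of means. The range of Nrxn3 was 191-fold, and its lower end lay among the excitatory groups whose level is not read as expression. It averaged 157 CPM in excitatory and 275 CPM in inhibitory neurons, 1.76-fold higher in inhibitory neurons and higher there in 9 of 9 animals. Pallidal and cholinergic neurons led with 401.5 ± 29.6 CPM, above the next group in 9 of 9 animals, and migrating neurons were the lowest with 127 ± 10.3 CPM.

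**Figure D1:**
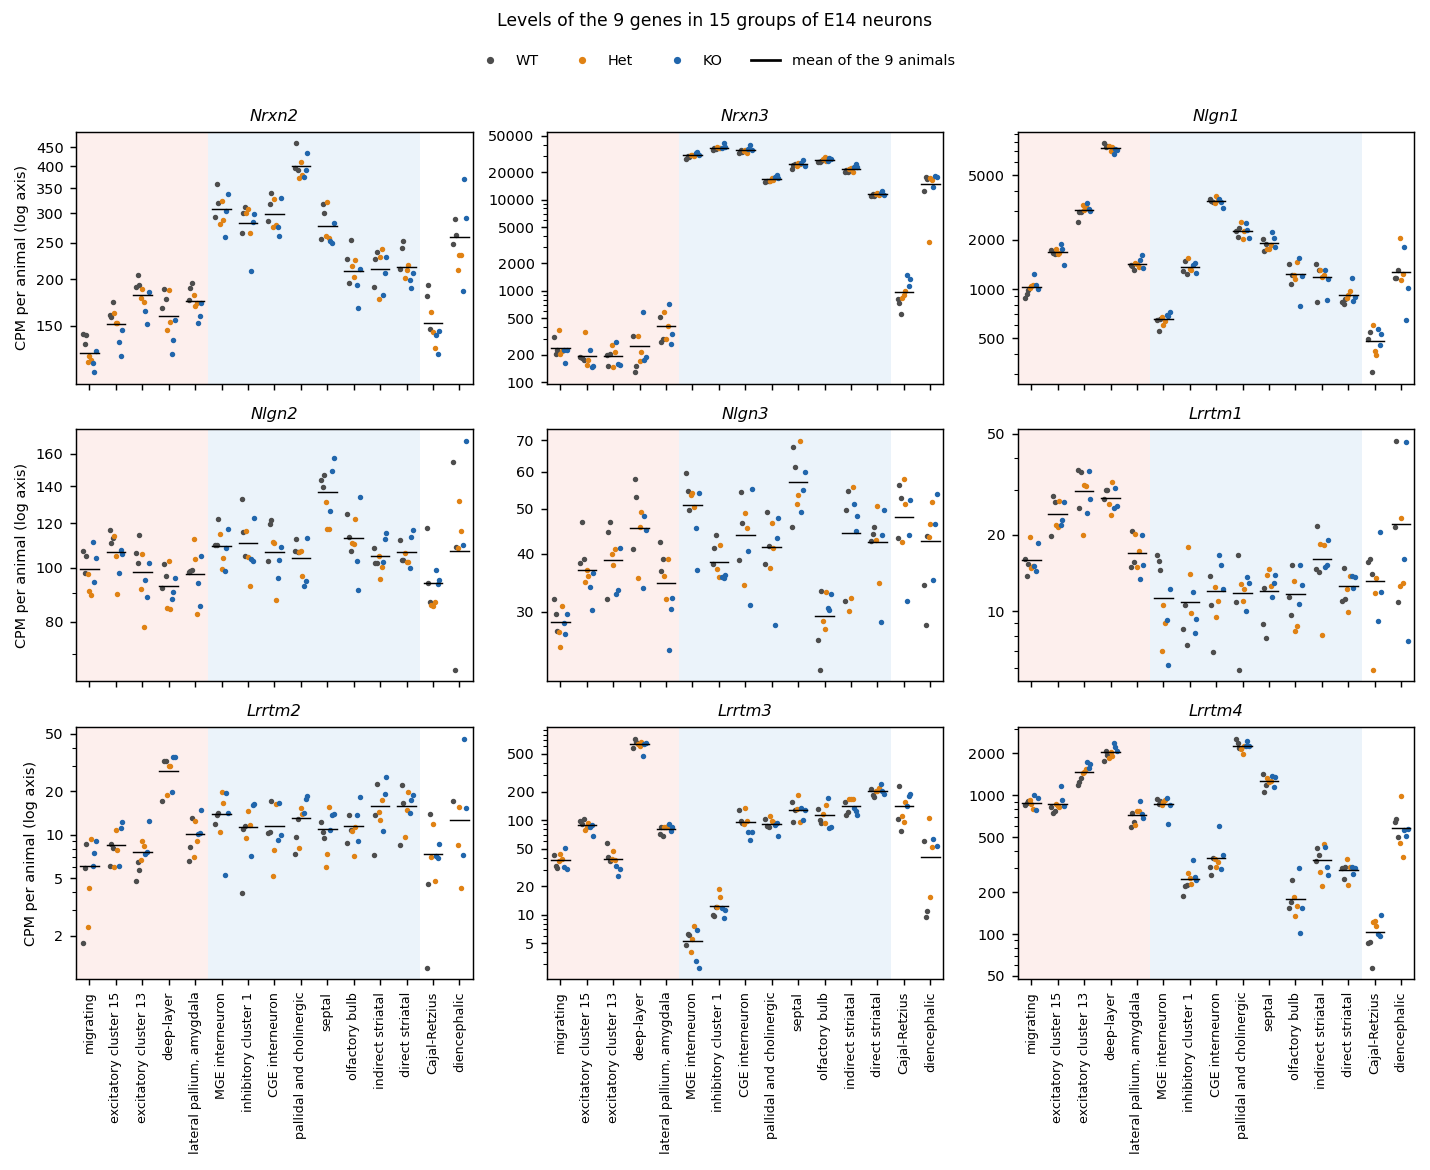
Level of each of the 9 genes (CPM, log axis) in 15 groups of E14 neurons, 1 point per animal and a bar at the mean of 9 animals, with excitatory groups on a pink and inhibitory groups on a blue ground (values of 0 are not drawn). Nrxn3 stands at 10859 CPM or more in every animal of the 8 inhibitory groups and at 710.5 CPM or less in the 5 excitatory groups, whereas Nlgn1, Lrrtm2 and Lrrtm3 peak in deep-layer neurons.

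The same nuclei give the levels along the excitatory line, from radial glia through Eomes-positive intermediate progenitors and the unnamed cluster 18 (Mfap4, Kif26b) to migrating neurons, excitatory neuron cluster 15 (Abcc8 and Cntn2 among its leading genes) and deep-layer neurons. This order comes from markers, not from a measured time. Lrrtm4 stood at 55.8, 87.6, 167, 886, 868 and 2034 CPM over these 6 groups, its largest step by ratio lying between cluster 18 and migrating neurons. Lrrtm3 came later, at 13, 8.49, 8.78, 37.8, 87.9 and 629.9 CPM, and its last 3 steps were upward in 9 of 9 animals each.

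Nrxn2 and Nlgn2 differed little between radial glia and intermediate progenitors and were higher from cluster 18 on. Nrxn2 was 37.2 CPM in radial glia and 36 CPM in intermediate progenitors, and 85.6, 127, 152 and 160 CPM in the following groups. Nlgn2 went from 54.3 CPM in both radial glia and intermediate progenitors to 95.9 CPM in cluster 18 and changed little after that. Both were higher in cluster 18 than in intermediate progenitors in 9 of 9 animals. Nlgn1 and Nlgn3 followed another course, being high in radial glia, low between and high again in neurons. Nlgn1 went from 3397 ± 158 CPM in radial glia to 1024 ± 101 CPM in migrating neurons before 7322 CPM in deep-layer neurons. Nlgn3 went from 41.9 ± 6.19 CPM to 13.2 ± 3.11 CPM in intermediate progenitors and 45.5 ± 7.84 CPM in deep-layer neurons. Both genes were lower in intermediate progenitors than in radial glia in 9 of 9 animals.

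**Figure D2:**
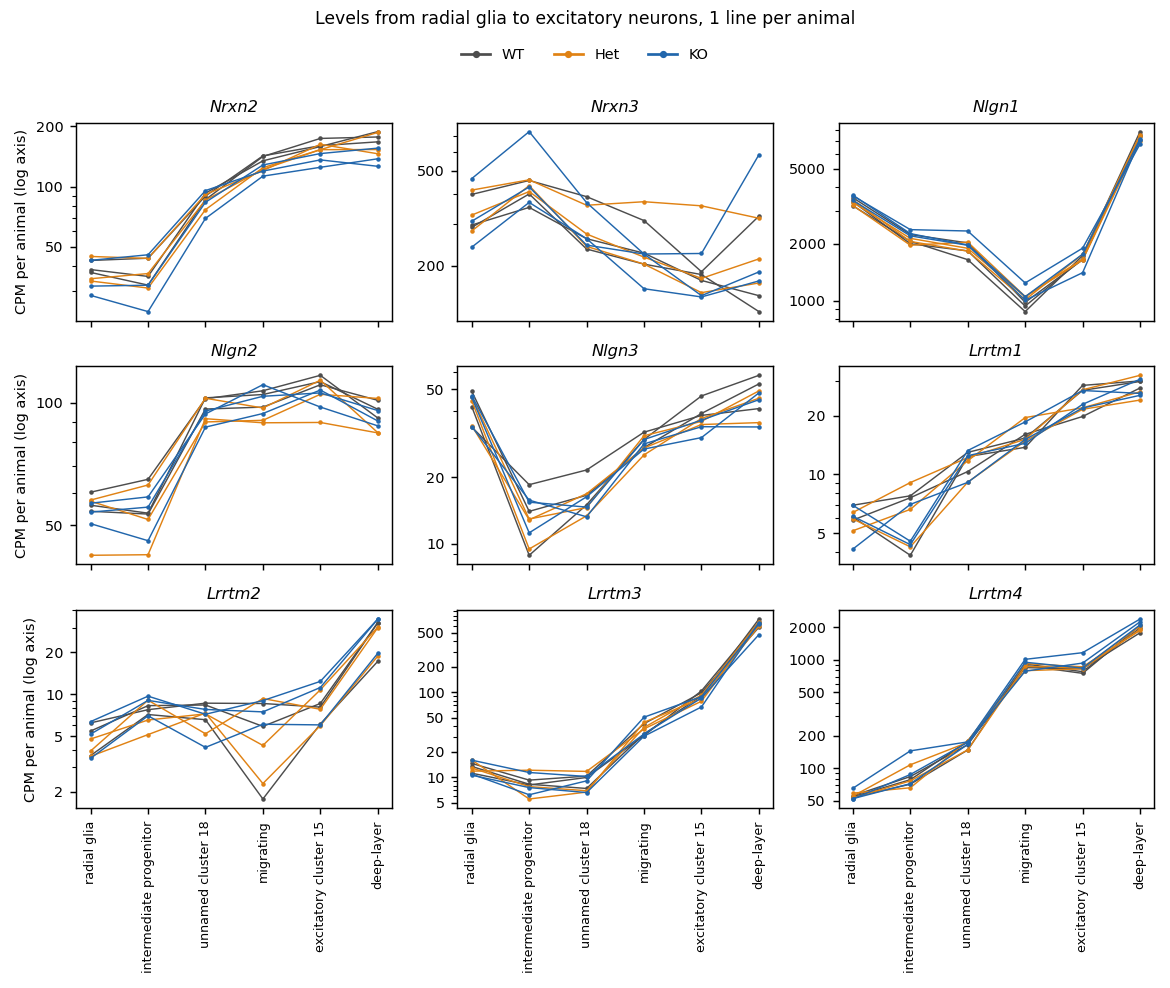
Level of each gene (CPM, log axis) in 6 groups ordered by their markers from radial glia to deep-layer neurons, 1 line per animal coloured by genotype. Lrrtm3 and Lrrtm4 climb to their highest level in deep-layer neurons, and Nlgn1 and Nlgn3 pass through a low point between radial glia and deep-layer neurons.

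For each member, the 3 genes with the most similar levels over the 13 tested subtypes were taken by Pearson r of log2(mean CPM + 1), a description over subtypes that share their animals. Nrxn3 was closest to Gad1 (r = 0.998), Slc32a1, the vesicular GABA transporter (0.995), and Gm14204 (0.995). Nrxn2 was closest to Zfp618 (0.953), Pcsk1 and Rgs10, all 3 highest in pallidal and cholinergic neurons. Nlgn1 was closest to Hip1 (0.941), with Timp2 (0.837) and Poc1b (0.833) well behind, Nlgn2 to Cox19 (0.922), Ipo11 and Fgd5, and Nlgn3 to Eps15 (0.923), Napb and Epb41l1. Lrrtm1 was closest to Lmo7 (0.973), Slc44a1 and Adamts18, Lrrtm2 to Pdzd2 (0.928), Neto2 and Kazn, Lrrtm3 to Me1 (0.927), Prickle1 and Slc35f4, and Lrrtm4 to 4933406I18Rik (0.906), Ankrd44 and Nyap2. Among the members themselves, Nrxn2 and Nrxn3 were the most alike (r = 0.825) and Nrxn3 and Lrrtm1 the most opposed (r = -0.870). Both values, and that of Nrxn3 with Gad1, span the excitatory subtypes, where the Nrxn3 level is not read as expression. Within the inhibitory subtypes Nrxn2 was highest in pallidal and cholinergic neurons, where Nrxn3 was above direct-pathway striatal neurons only. Gad1 and Slc32a1 were also among the markers that named inhibitory neurons.

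KO and WT were compared next, to see which of these genes differ in level between them within the named groups of nuclei. Counts summed per animal were tested with edgeR's quasi-likelihood test, and a call needed an adjusted p under 0.05 over all genes tested in that group and a log2 fold change beyond 0.2. Same-numbered animals of the 3 genotypes deviated together, so each test was also fitted with the replicate number as a block, and its value is given where it changes the call. Without the block, 1 of 53 tests of members in 6 classes was called, against 0.239% of all gene tests there, and 1 of 117 in 13 subtypes, against 0.444%. With it, 4 of 53 were called against 1.63%, and 6 of 117 against 1.74%. The calls were Nrxn3 in Cajal-Retzius and deep-layer neurons, and Lrrtm4, Nrxn2 and Nlgn3 in excitatory neurons or their subtypes.

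Nrxn3 rose in Cajal-Retzius neurons of KO embryos. These early neurons of the marginal zone secrete reelin, and they are few, so counts per animal are smaller than in excitatory or inhibitory neurons: 7975338 counts in all 9 animals, against 14004086 to 23515794 per animal in excitatory neurons. Nrxn3 stood there at 809, 739 and 561 CPM in WT, at 842, 897 and 989 CPM in Het and at 1480, 1143 and 1354 CPM in KO. The 3 genotypes did not overlap, with Het between WT and KO. The log2 fold change of KO against WT was 0.92 ± 0.13 (SE, n = 3 per genotype, edgeR adjusted p = 0.00799), in a class where 0.0313% of genes were called without and 0.366% with the block. The call held in each alternative setting that gave a value, with log2 fold changes of 0.79 to 1.04.

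The summed inhibitory markers were not higher in KO. Their sum in Cajal-Retzius nuclei lay between 56.1 and 97.4 CPM in WT animals, between 40.5 and 65.7 CPM in Het animals and between 39.8 and 65.7 CPM in KO animals, with 2 of the 7 markers higher on average in KO and none at 0 in all animals. As a percentage of the inhibitory level, Nrxn3 in these nuclei was 3.84, 3.11 and 2.43% in WT and 6.16, 4.26 and 5.68% in KO, whereas Gad1 was 3.07, 0.525 and 0.326% in WT and 2.27, 0.268 and 1.77% in KO. The 6 Cajal-Retzius markers summed to 18656 to 22041 CPM in WT and 17213 to 19088 CPM in KO, overlapping ranges, and 5 of the 6 were higher on average in KO.

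Lrrtm4 rose in excitatory neuron cluster 13 of KO embryos. Its level there was 1189, 1253 and 1326 CPM in WT, 1439, 1478 and 1554 CPM in Het and 1731, 1568 and 1679 CPM in KO. Again the genotypes did not overlap and Het lay between. The log2 fold change of KO against WT was 0.42 ± 0.075 (SE, n = 3 per genotype, edgeR adjusted p = 0.00906), where 0.334% of genes were called without and 1.54% with the block. The call was lost without WT 1 (adjusted p = 0.0626), without KO 1 (0.0650), in run 1 alone (0.856) and in the animals numbered 2 and 3 alone (0.247), with log2 fold changes of 0.37, 0.38, 0.51 and 0.34. The 10 deep-layer markers summed to 6143 to 6502 CPM in WT and 5967 to 6633 CPM in KO in this cluster.

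In excitatory neuron cluster 15 and deep-layer neurons the fold changes had the same sign and were smaller. In cluster 15, Lrrtm4 was 825, 749 and 776 CPM in WT and 1161, 932 and 838 CPM in KO. In deep-layer neurons it was 1773, 2068 and 1959 CPM in WT and 2372, 2237 and 2093 CPM in KO. KO was above WT in both without overlap, though by little in each case. In edgeR without the block neither passed (log2 fold change 0.35 ± 0.095, adjusted p = 0.110, and 0.23 ± 0.084, adjusted p = 0.189), and with it both did (adjusted p = 0.00292 and 0.0145), in groups where the block called 3.37% and 8.37% of all genes. In cluster 15 Lrrtm4 was also called without a block by DESeq2 (adjusted p = 0.0321), without the filter on low counts (0.000233) and without KO 3 (0.00474). Without KO 1 the log2 fold change fell to 0.20 in cluster 15 and to 0.19 in deep-layer neurons, where it was 0.16 without WT 1, and in the animals numbered 2 and 3 alone it was 0.23 and 0.12. In cluster 15 the summed deep-layer markers were also higher in KO, at 8548 to 8986 CPM against 7879 to 8119 CPM in WT, and their part in the result was not tested.

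Over all excitatory neurons, Lrrtm4 was 1126, 1230 and 1183 CPM in WT, 1187, 1195 and 1164 CPM in Het and 1487, 1288 and 1301 CPM in KO. The log2 fold change of 0.23 ± 0.072 did not pass without the block (adjusted p = 0.179) and passed with it (0.0221) and without the filter on low counts (0.0167). It was 0.15 without KO 1 and 0.11 in the animals numbered 2 and 3 alone, below the size a call needs. In inhibitory neurons KO and WT overlapped (log2 fold change 0.03 ± 0.14, adjusted p = 0.992). Over all 13 subtypes, excitatory and inhibitory, the log2 fold change ran from -0.19 to 0.42, the highest being that in cluster 13. In inhibitory neuron cluster 1, Lrrtm4 was 188, 222 and 224 CPM in WT, 276, 252 and 229 CPM in Het and 343, 256 and 244 CPM in KO, so that Het and KO both lay above WT. The log2 fold change of KO was 0.41 ± 0.12, close in size to that in cluster 13, but it was not called (edgeR adjusted p = 1.00, and 0.591 with the block). The difference of the KO change between these classes was 0.22 ± 0.14 (edgeR interaction, adjusted p = 0.882), so Lrrtm4 is not shown to respond differently in them.

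Nrxn2 was lower in KO in excitatory neurons, at 165, 173 and 175 CPM in WT, 155, 162 and 153 CPM in Het and 137, 135 and 155 CPM in KO. All 3 KO animals were below all 3 WT animals, and KO 3 lay among the Het animals. The log2 fold change was -0.25 ± 0.065, and the adjusted p was 0.0901 without and 0.00694 with the block. It was called without a block by DESeq2 (adjusted p = 0.0487), without the filter on low counts (0.0324) and without KO 3 (0.0484). Of all genes tested in excitatory neurons, 1.08% were called without and 6.75% with the block. Nrxn2 was also called with the block in deep-layer neurons (log2 fold change -0.32, adjusted p = 0.00546) and in cluster 15 (-0.25, adjusted p = 0.0335). Its log2 fold change was below 0 in all 13 subtypes, from -0.32 to -0.03, and in all 6 classes, but these groups come from the same 9 animals.

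Nlgn3 was 38.6, 45.3 and 41.9 CPM in the excitatory neurons of WT, 34.2, 35.8 and 39.7 CPM in Het and 31.3, 34.8 and 37.5 CPM in KO. KO lay below WT by a narrow margin, and Het overlapped both. The log2 fold change was -0.26 ± 0.091, with an adjusted p of 0.227 without and 0.0142 with the block. Nlgn3 is X-linked and WT 3 was the only female. Without WT 3 the log2 fold change was also -0.26. Over the fits that left out 1 animal it ran from -0.32 (without WT 1) to -0.18 (without WT 2). The last is below the size a call needs.

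Nrxn3 in deep-layer neurons was called with the block (log2 fold change 0.59, adjusted p = 0.00222) and not without it (0.67 ± 0.41, adjusted p = 0.486), though it was called without the block when low counts were not filtered (adjusted p = 4.01e-11). Its values were 323, 128 and 150 CPM in WT and 584, 172 and 188 CPM in KO, overlapping and high in KO 1. The GABA genes were also high in KO 1: Nrxn3 was 2.43%, Gad1 2.76% and Gad2 2.11% of their inhibitory levels, against at most 0.867% in KO 2 and KO 3. From WT 2 to KO 2, Nrxn3 went from 0.54 to 0.642%, Gad1 from 0.533 to 0.867% and Gad2 from 0.761 to 0.724%. From WT 3 to KO 3, Nrxn3 went from 0.648 to 0.789%, Gad1 from 0.672 to 0.604% and Gad2 from 0.681 to 0.636%. The source of these counts was not tested. Within each replicate number Nrxn3 was higher in KO than in WT. In the animals numbered 2 and 3 alone its log2 fold change was 0.39 (adjusted p = 0.0576). Without KO 1 but with WT 1, which was also high, it was -0.11.

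**Figure D3:**
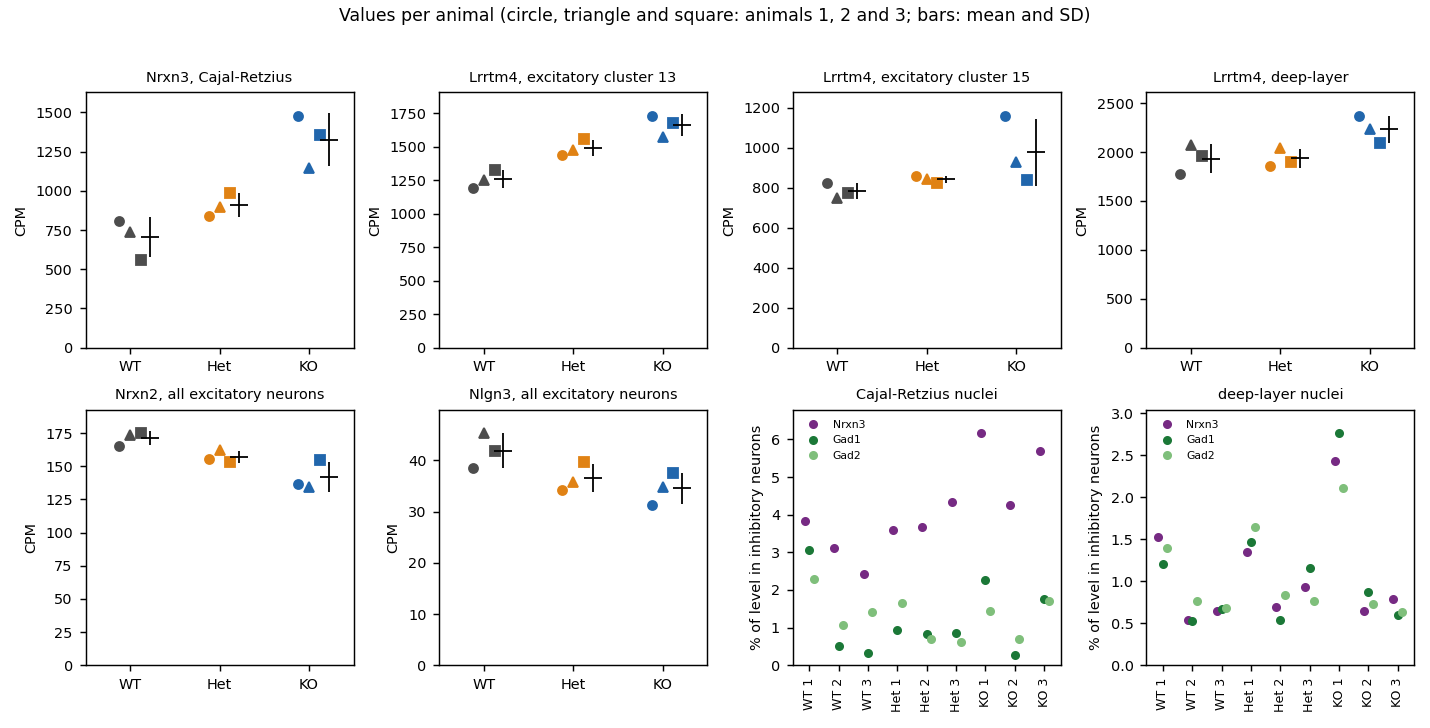
Values per animal of the members called in KO: CPM by genotype in 6 panels (axes start at 0, bars show mean and SD of 3 animals), and Nrxn3, Gad1 and Gad2 as a percentage of their level in inhibitory neurons in Cajal-Retzius and deep-layer nuclei. In Cajal-Retzius nuclei Nrxn3 stands above Gad1 and Gad2 in every animal, up to 6.16% in KO 1, and in deep-layer nuclei the 3 genes share their highest values in KO 1.

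In inhibitory neurons no member was called with or without the block, where 0.0161% and 0.606% of genes were. At an unadjusted p under 0.05, 10 of the 53 class tests and 28 of the 117 subtype tests of members passed in edgeR without the block, against 6.29% and 7.91% of all gene tests. DESeq2, whose tests also include sparser genes, called 2 of 54 class tests and 2 of 117 subtype tests of members, both of the latter for Lrrtm4, against 0.184% and 0.149%, and 7 and 21 of these tests had an unadjusted p under 0.05, against 1.49% and 1.4%. Nrxn3 in inhibitory neurons was 21090, 23734 and 23064 CPM in WT and 24012, 26836 and 23830 CPM in KO. All KO animals were above all WT animals, but the log2 fold change of 0.17 ± 0.092 had an adjusted p of 0.865 and did not reach the size a call needs. Nlgn1 and Nlgn2 were called in no class or subtype. In deep-layer neurons, where Nlgn1 was highest, it was 7853, 7484 and 7500 CPM in WT and 6750, 7197 and 7105 CPM in KO, with a log2 fold change of -0.09. Over the 13 subtypes the log2 fold change of Nlgn1 ran from -0.09 to 0.27, with a lowest edgeR adjusted p of 0.311 without the block. The highest log2 fold change was 0.27 ± 0.083 in migrating neurons (adjusted p = 0.896), where Nlgn1 was 877, 938 and 982 CPM in WT and 1243, 1051 and 1007 CPM in KO.

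Lrrtm3 had its lowest adjusted p among classes in excitatory neurons, with a log2 fold change of -0.25 ± 0.11 and an adjusted p of 0.319 without and 0.0612 with the block. It was 243, 273 and 252 CPM in WT and 171, 221 and 244 CPM in KO, so the ranges overlapped. Class sums mix subtypes, and Lrrtm3 was 629.9 CPM in deep-layer neurons but 87.9 CPM in cluster 15. Deep-layer nuclei were 1941 of 6845, 1900 of 7271 and 1544 of 6053 excitatory nuclei in WT. In KO they were 1075 of 4658, 1367 of 5771 and 1958 of 7550. The part of these shares in the class values was not tested. In cluster 13 Lrrtm3 stood at 56.8, 41.2 and 37.3 CPM in WT and 32.7, 25.9 and 30.6 CPM in KO, not overlapping but not called (log2 fold change -0.55 ± 0.17, adjusted p = 0.225), while Lrrtm4 in the same nuclei was higher in KO. Lrrtm1 and Lrrtm2 gave the fewest counts of the members in both neuron classes. Their log2 fold changes in subtypes ran from -0.73 to 0.52 and from 0.02 to 0.79, and none was called. The lowest was Lrrtm1 in medial ganglionic eminence interneurons, at 16.7, 15.7 and 14.5 CPM in WT, 6.96, 10.5 and 8.98 CPM in Het and 9.20, 6.16 and 12.2 CPM in KO (adjusted p = 0.299), where WT lay above both.

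**Figure D4:**
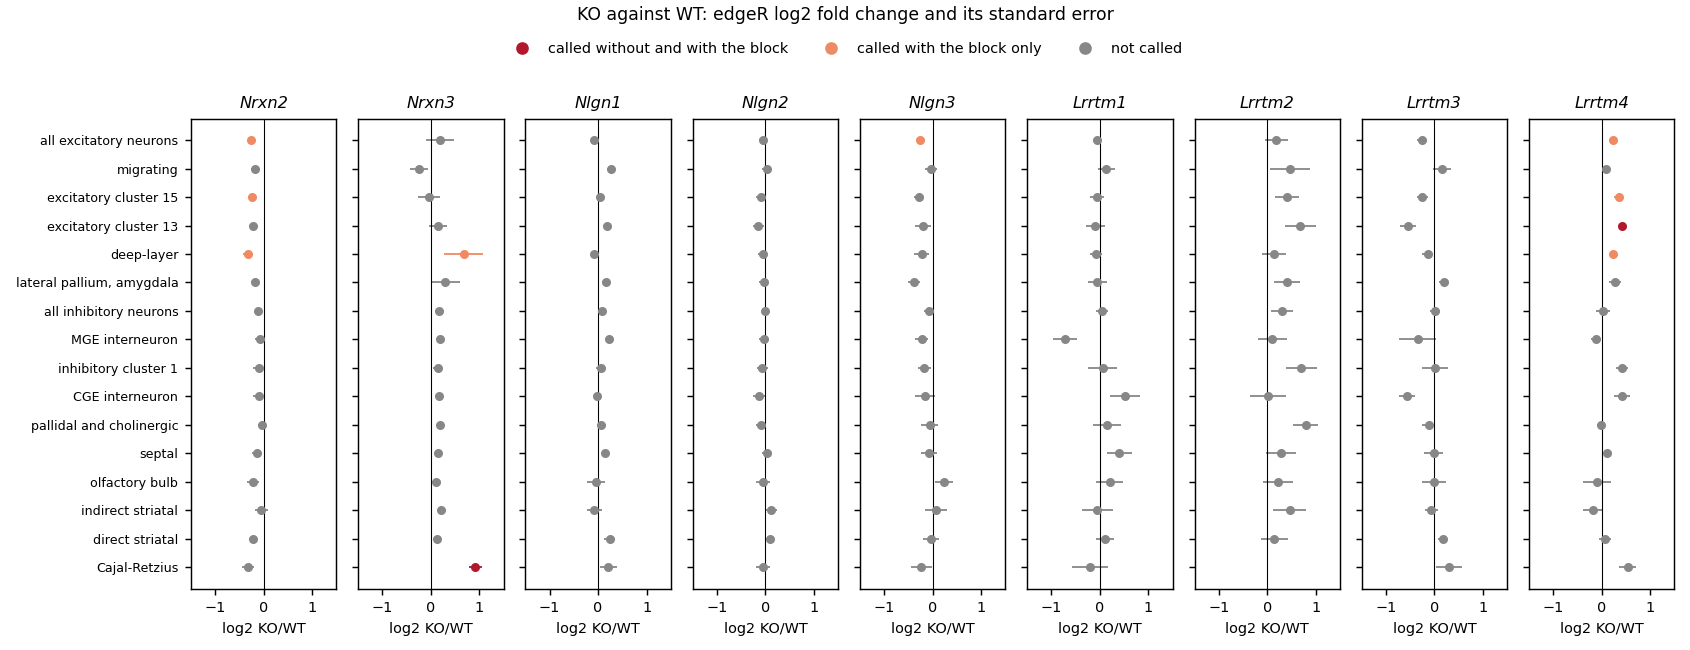
Log2 fold change of KO against WT with its standard error (edgeR, n = 3 animals per genotype) for the 9 genes in excitatory, inhibitory and Cajal-Retzius neurons and 13 subtypes; dark red marks calls without and with the replicate block and orange those with the block only. Nrxn3 in Cajal-Retzius neurons (0.92) and Lrrtm4 in excitatory neuron cluster 13 (0.42) are dark red, and Nrxn2 lies left of 0 in all groups shown.

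The difference of the KO change between excitatory and inhibitory neurons was tested for each member in 1 model with the animal as a block. By edgeR 0 of 9 members passed, against 0.134% of all genes, and 2 of 9 had an unadjusted p under 0.05, against 6.5% of all genes: Nrxn2 with -0.15 ± 0.048 (adjusted p = 0.508) and Nlgn3 with -0.18 ± 0.068 (adjusted p = 0.660). The KO changes of Nrxn2 and Nlgn3 are thus not shown by this fit to be particular to excitatory neurons. Without the filter on low counts some members did pass, in a fit that called more genes in all, as given below under processing.

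Het and WT were compared to see whether these genes also differ in level where 1 allele is lost. By edgeR no member was called in any class or subtype, with or without the block. Over all genes, 0% of tests in the classes and 0% in the subtypes were called without the block, and 0.00797% and 0.0158% with it. At an unadjusted p under 0.05, 3 of 53 class tests and 11 of 117 subtype tests of members passed in edgeR without the block, against 2.62% and 3.36% of all gene tests. By DESeq2 2 of 54 and 6 of 117 did, against 0.427% and 0.384%, and it called 0 members, against 0% and 0.000478%. For Lrrtm4 in cluster 13 the log2 fold change of Het against WT was 0.27 ± 0.076 (adjusted p = 0.986), and for Nrxn3 in Cajal-Retzius neurons it was 0.38 ± 0.13 (adjusted p = 0.999). Lrrtm4 in Cajal-Retzius neurons had 0.63 ± 0.17 (adjusted p = 0.999), with 86.6, 88.2 and 57.4 CPM in WT and 122, 125 and 115 CPM in Het. KO stood at 99.9, 97.4 and 138 CPM there, also above WT (log2 fold change 0.53 ± 0.17, edgeR adjusted p = 0.395).

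The partners of these proteins were read from 5 lists. Neurexin ligands and their extracellular regulators had 1 of 19 tested genes lower and 0 higher in excitatory neurons of KO, with a list median of -0.12 on the log2 scale beside -0.01 over all genes and 1.08% of genes called. The gene was Mdga2, which encodes a membrane protein that binds neuroligins and blocks their contact with neurexins. It was 1348, 1388 and 1294 CPM in WT, 1191, 1075 and 1031 CPM in Het and 872, 1021 and 946 CPM in KO, with a log2 fold change of -0.48 ± 0.075 (edgeR adjusted p = 0.0103). The genotypes did not overlap. The call was lost in run 1 alone (log2 fold change -0.49, edgeR adjusted p = 0.577).

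Intracellular partners had 1 of 20 higher and 0 lower in excitatory neurons, where 1.08% of all genes were called without the block. The gene was Dlg1, a scaffold protein with PDZ domains, with 419, 420 and 420 CPM in WT, 470, 464 and 458 CPM in Het and 561, 538 and 511 CPM in KO, and a log2 fold change of 0.38 ± 0.059 (edgeR adjusted p = 0.0103). The call was lost without WT 3 (adjusted p = 0.0510), in the animals numbered 2 and 3 alone (0.0746) and in run 1 alone (0.491). With the block Dlg1 was also higher in inhibitory neurons (0.26, adjusted p = 0.0321), and there Nxph2, a secreted neurexophilin that binds neurexins, was lower (-0.59, adjusted p = 0.00603). That fit called 0.606% of all genes in inhibitory neurons. Neurexin splicing regulators had 0 of 3 called in excitatory neurons, against the same 1.08% without the block, and their median was 0.06.

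Among 22 other synaptic adhesion genes, 1 was lower and 0 higher in excitatory neurons, where 1.08% of all genes were called without the block. The gene was Cadm2, a SynCAM family adhesion gene, at 2067, 1792 and 1874 CPM in WT, 1717, 1556 and 1655 CPM in Het and 1286, 1238 and 1403 CPM in KO (log2 fold change -0.52 ± 0.060, edgeR adjusted p = 0.00186). The Cadm2 call was lost in run 1 alone (log2 fold change -0.49, edgeR adjusted p = 0.191). With the block, Adgrl3, Dlgap3, Lin7a and Lrrc4c were also called lower and Dlgap2, Tenm3 and Ctnna1 higher, in a fit that called 6.75% of all genes in excitatory neurons. In inhibitory neurons 0 of 18, 20, 3, 3 and 22 genes of these lists were called without the block. That fit called 0.0161% of all genes there, so the lists are not set apart from other genes.

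The alpha-catenin genes that host Lrrtm1, Lrrtm2 and Lrrtm3 give the values behind any read of the host counted for the guest. In excitatory neurons Ctnna2 had a log2 fold change of 0.07 ± 0.056 (adjusted p = 0.657), Ctnna1 of 0.26 ± 0.080 (0.166, and 0.0134 with the block) and Ctnna3 of -0.21 ± 0.10 (0.394). Ctnna1 was 34.2, 38.2 and 36.2 CPM in WT and 42.1, 45 and 40.9 CPM in KO, a narrow gap, and Lrrtm2 within it was not called. Ctnna3 and Lrrtm3 had fold changes of the same sign in excitatory neurons, and whether they share counts was not tested.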

How the data were processed

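Nuclei were sequenced in 18 libraries. Per the study's methods the authors mapped reads to mm10 with ScaleRna and deposited sparse tables of estimated counts of UMIs per gene and barcode, of which 6.70 to 8.71% of entries were not whole. The submitters' notes also name Seurat 4.3.0, DESeq2 1.38.3 and Scanpy 1.12.0. For the annotation release and strand, the sources used here give nothing.

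Barcodes with 800 to 6000 UMIs, 300 to 3000 genes, at most 1% mitochondrial counts were kept where log genes divided by log UMIs was 0.9 or more, and the 5% with the highest doublet scores were removed. Nuclei were clustered with scanpy 1.11.5 (3000 variable genes without the members, 50 principal components, 20 neighbours, Leiden resolution 1), and clusters were named from markers. Counts were summed per animal and group over both runs, rounded, and tested with edgeR 4.0.16 (filterByExpr, TMM, quasi-likelihood, all 3 genotypes in 1 fit) in R 4.3.3, with Benjamini-Hochberg adjustment over all genes of a group. DESeq2 1.42.0 was an alternative. Tests were tried on simulated data. Positions are from GENCODE vM21, which holds Nrxn3 under another version of its identifier.

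Same-numbered animals deviated together (r of 0.103 to 0.265 in excitatory and 0.120 to 0.262 in inhibitory neurons, 9 pairs each, against -0.205 to 0.023 for other pairs), so the replicate numbers were taken to pair the animals. Levels were centred within each genotype first, so the low values of other pairs follow in part from those of same-numbered pairs. What the number marks is not given, and p-values measure the spread between these animals. The members, lists and tests were chosen with earlier results of these data known. The text names all 9 members, Myt1l, the 3 alpha-catenin genes, partner genes called in excitatory or inhibitory neurons (at most 10 per class) and the 3 genes most like each member. A few values that bear on withheld genes are not reported here.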

Additional observations from a re-analysis of the deposited data

How the results depend on the processing

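With the replicate block, which pairs animals of 1 number, 4 tests of members instead of 1 were called in classes and 6 instead of 1 in subtypes, where 1 member can be called in several groups, 1278 instead of 204 genes in excitatory neurons and 113 instead of 3 in inhibitory neurons. The test between classes already holds the block in its animal term. DESeq2 called 2 and 2 such tests and 359 and 22 genes. Without a filter on low counts these were 4 and 4 tests of members, 754 and 107 genes, and 2 members and 258 genes instead of 0 and 27 for the difference between classes. In run 1 alone all 4 counts of KO calls were 0, and Cajal-Retzius nuclei were too few for a value. In the 6 animals numbered 2 and 3, a setting chosen after seeing the data, 0 tests of members were called in subtypes, and 128 and 1 genes in the classes. With only the 6 animals compared they were 128 and 0. Inhibitory calls were 7 in run 2 alone and 1 with RLE factors, without doublet removal or at resolution 2. Leaving out 1 animal gave 1 to 2 called tests of members in classes (2 without KO 3), 0 to 2 in subtypes (0 without WT 1 or KO 1, 2 without KO 3), 59 to 306 genes in excitatory neurons (59 without WT 3), 0 to 1 in inhibitory neurons and 3 to 25 for the difference (3 without WT 3). The cause was not tested.

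As log2 of excitatory over inhibitory level, run 1 alone gave 0.82 for Nlgn1 (1.17 with both runs), -0.093 for Nlgn2 (-0.17), -0.36 for Nlgn3 (-0.22), 0.76 for Lrrtm1 (0.93) and -0.067 for Lrrtm2 (0.06), and resolution 2 gave -0.74 for Nrxn2 (-0.81). Over 29 results for single genes and 555 comparisons with an alternative, 530 kept their direction and 25 reversed. These results are log2 fold changes, so the sign change of the Lrrtm2 level ratio is not among the 25. Those that reversed were log2 fold changes of KO against WT that had not been called without the block. In excitatory neurons, Nrxn3 gave -0.12 in run 1 and -0.26 to 0.46 without 1 animal, Lrrtm1 0.094 in run 1 and -0.12 to 0.0042 without 1 animal, and Lrrtm2 -0.022 to 0.38. In inhibitory neurons without 1 animal, Nlgn1 gave -0.030 to 0.14, Nlgn2 -0.067 to 0.033, Lrrtm1 -0.046 to 0.20, Lrrtm3 -0.10 to 0.15 and Lrrtm4 -0.17 to 0.19. There, the animals numbered 2 and 3 gave -0.011 for Nlgn1, 0.036 for Nlgn2 and -0.099 for Lrrtm4, run 2 alone 0.0064 for Nlgn2, run 1 alone -0.25 for Lrrtm1 and -0.12 for Lrrtm3, resolution 2 -0.012 for Lrrtm1, no upper limits -0.010 for Lrrtm3 and -0.027 for Lrrtm4, and no filter -0.0021 for Lrrtm3. Nrxn3 in deep-layer neurons gave -0.11 to 1.18 without 1 animal. Lrrtm1 and Lrrtm2 gave 1612 to 3732 counts over all animals in excitatory or inhibitory neurons, the fewest of the members there.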

Other observations

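Some clusters, of 692 to 13430 nuclei each, got no name under the marker rules and were left unnamed. Several of them held high levels of these genes. The cluster led by Pappa2 and Nts held 552 ± 100.3 CPM of Lrrtm3 (SD, n = 9), and among the named groups only deep-layer neurons had a higher mean. The cluster led by Sim1 and Tafa1 held 323 CPM of Lrrtm3 and 1557 CPM of Lrrtm4. The cluster led by Samd3 and Car10 held 10566 CPM of Nrxn3, a level near that of direct-pathway striatal neurons.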
